A study of Mus musculus with 4 samples.

Results

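The solute carrier transporter genes are the genes whose symbols have the form Slc, a family number, the letter a and a member number. They were described at the peaks of a methylated RNA immunoprecipitation experiment in mouse cerebral cortex. The rule of choice left out 5 such genes (Slc17a6, Slc17a7, Slc32a1, Slc1a2 and Slc1a3). It goes by symbol alone, but the members were chosen with earlier results of these data known. The rule gave 412 peaks of 149 genes, out of 33977 peaks of 10415 genes, and 404 of the peaks, in 147 genes, passed the filter on low counts.

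The experiment pulled down RNA fragments with an antibody against m6A, a methyl group on adenosines of RNA, and counted reads at peaks. One group of mice had received mild traumatic injury of the brain repeatedly (rmTBI) and the other a sham procedure, and each group had 2 cortex libraries, numbered 0 and 1. Strain, age, sex, injury protocol, time after injury, the number of mice and the meaning of the library numbers are not stated in the labels. Nothing says that the libraries came from separate mice, so p-values measure only how far these libraries spread, for which technical reasons would suffice. All 4 libraries are labelled m6A. If all 4 carry the antibody, counts at a peak reflect both how much of a transcript there was and how much of it was methylated. In these bulk samples, fewer cells of a type and less RNA per cell cannot be told apart either.

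Solute carriers are membrane proteins that move ions, nutrients, metals, neurotransmitters and metabolites across the plasma membrane and the membranes of organelles, by facilitated diffusion or by coupling to ion gradients. In the cortex, neurons use sodium/calcium exchangers and bicarbonate exchangers to restore ion levels after activity. Astrocytes take up glycine and bicarbonate through carriers, the vessel wall brings glucose and amino acids into the tissue, and the choroid plexus moves sulfate and monoamines between blood and cerebrospinal fluid. The m6A mark is placed on many transcripts, mostly near stop codons and in 3' untranslated regions (UTRs), at a short core motif often written GGAC.

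Sequences are shown for 6 members with a peak over at least part of their first 50 transcribed bases, on the gene's own strand. The first 3 hold GGAC, in capitals, in their first 50 transcribed bases, and the last 3 are members with described 5' UTR peaks whose first 50 bases do not hold it. Each run has 30 bases, 5′ to 3′, from RefSeq, build GRCm38.p6.
Slc24a3: gcgagcaggagagGGACcccgagcgcaggg
Slc39a12: acggagaactgtgGGACcacaaaatgctct
Slc16a14: gttcacctGGACagatagtgaacagagggc
Slc39a10: gctgagtgcgccgtcggcgtagagcgccgg
Slc13a4: gattcttcacggctgctttggaagtccata
Slc16a1: agacaaagtggcgagctgcgacgtgactgg
The run of Slc24a3 lies at chr2:145167775-145167804 on the plus strand. That of Slc39a12 begins at transcribed base 18 (chr2:14388415-14388444, plus strand), and that of Slc16a14 lies at chr1:84935054-84935083 on the minus strand. The other runs lie at chr1:46853589-46853618 (Slc39a10, minus strand), chr6:35308097-35308126 (Slc13a4, minus strand) and chr3:104638664-104638693 (Slc16a1, plus strand). GGAC was searched on the transcript strand only. It was present in 26 of 137 windows of the members (18.98%) and in 6194 of 32851 windows of all genes (18.85%), so the members' share was close to that of all genes. A window was given for 111 of the 149 members, a gene with several starts having several. Of the 22 members with a peak over a window on the same strand, 6 held the motif. The same share over all genes with such a peak was not computed. A match is a description of letters and does not mark a methylated site.

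The members' peaks lay more often in 3' UTRs and 5' UTRs than peaks in general. By the authors' classes, 213 of 412 peaks (51.7%) were in 3' UTRs, 144 (35.0%) in coding sequence and 55 (13.3%) in 5' UTRs, where 39.7%, 50.4% and 6.24% of all peaks lay. These shares are descriptions, since overlapping peaks share reads. The 412 peaks formed 273 overlap clusters, because peaks were called separately in rmTBI and in sham. Slc43a2, a transporter of large neutral amino acids, had 11 peaks, Slc25a44, a mitochondrial carrier of branched-chain amino acids, had 10, and Slc24a3, a potassium-dependent sodium/calcium exchanger, had 9. Slc8a2 and Slc8a3, sodium/calcium exchangers of neurons, had 8 each. In 12 genes the peaks lay on both strands. At Slc43a2 the plus-strand peak chr11:75532201-75532412 held 33 and 98 counts in rmTBI libraries 0 and 1 and 32 and 90 in the sham libraries, and the minus-strand peak chr11:75532208-75532387 held 32 and 98 in rmTBI and 31 and 89 in sham. Whether reads were counted by strand is not stated in the labels. Overlap clusters were formed within a strand, so these peaks counted as separate clusters though their counts were nearly the same. Of the 412 peaks, 30, in 11 genes, overlapped a second protein-coding gene, and reads there cannot be assigned to the carrier with certainty. Some of these genes, such as Slc24a5, Slc3a1 and Slc5a2, also had peaks on both strands.

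The members took 0.999% and 0.838% of the counts of rmTBI libraries 0 and 1 and 0.947% and 0.797% of those of sham libraries 0 and 1. Their median peak held 72 and 149 counts in rmTBI and 77.5 and 155 in sham, against 98 and 214 in rmTBI and 108 and 209 in sham over all peaks. At least 10 counts in every library were held by 342 of the 412 peaks (83.0%, against 88.7% of all peaks). Low members therefore carry wide errors. Slc2a5, a fructose transporter of microglia, had 4 and 6 counts in rmTBI and 4 and 15 in sham and was not tested, nor was Slc31a2, a copper transporter, with 3 and 13 in rmTBI and 3 and 15 in sham.

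Members were then compared between rmTBI and sham, each peak in a model fitted over all 33415 tested peaks. No solute carrier peak passed the test. With edgeR's quasi-likelihood F-test and p-values adjusted by Benjamini-Hochberg, 0 of 404 member peaks had an adjusted p under 0.05, against 0.0868% of all tested peaks, and every member had an adjusted p of 1. At an unadjusted p under 0.05 the same test had 11 member peaks, which is 2.72% of the members against 2.84% of all tested peaks. Higher in rmTBI were 2 of them, in Slc8a2 and Slc15a3 (0.73% of all tested peaks were higher at that p). Lower were 9, of which 2 were in Slc24a3 and 1 each in Slc39a12, Slc17a8, Slc25a37, Slc22a15, Slc25a11, Slc13a4 and Slc16a1 (2.11% of all tested peaks). DESeq2 called 0 member peaks, against 0.406% of all peaks, and had 4 at an unadjusted p under 0.05 (0.971%, against 2.19% of all peaks). The values below are therefore descriptions of these libraries, and none of the differences named passed these tests, in which group was the only term of the model.

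For a count by gene, each gene was represented by its tested peak with the most counts. Of 147 genes, 64 lay higher and 83 lower in rmTBI (43.5% higher, against 51.1% of all genes, and 56.5% lower, against 48.9%), with a median log2 fold change of -0.05 against 0.01 for all genes. Between libraries 0 the members' median was -0.09, and between libraries 1 it was 0.01. Both rmTBI libraries lay above both sham libraries in 17 genes (11.6%, against 10.7% of all genes) and below both in 26 (17.7%, against 12.3%). The direction of the 147 genes was thus mixed.

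The groups of transporters by role had medians near 0, apart from groups of few genes. The 28 amino acid transporters of the plasma membrane and lysosome had 13 higher and 15 lower genes and a median log2 fold change of -0.02. The 26 transporters of monocarboxylates, dicarboxylates, vitamins and organic ions had 11 higher and 15 lower (median -0.09), the 21 measured metal ion transporters 7 and 14 (median -0.05), and the 17 mitochondrial carriers 8 and 9 (median -0.02). Of the 11 measured sugar transporters 4 were higher and 7 lower (median -0.09), and of the 9 bicarbonate and anion exchangers 6 were higher and 3 lower (median 0.18). The median of the sugar transporters ranged from -0.38 without rmTBI library 1 to 0.06 without sham library 0, and that of the bicarbonate and anion exchangers turned to -0.02 without rmTBI library 0. The 8 sodium/calcium exchangers had 3 higher and 5 lower genes (median -0.18), the 5 sodium/proton exchangers 2 and 3 (median -0.26), and the 5 cation-chloride cotransporters 4 and 1 (median 0.08). When a library was left out, the median of the sodium/calcium exchangers ranged from -0.30 to 0.08 and that of the sodium/proton exchangers from -0.74 without rmTBI library 0 to -0.01 without rmTBI library 1. Small groups were the lipid and choline transporters (1 higher and 3 lower, median -0.43), the Slc6 carriers of glycine, taurine and creatine (1 and 2, -0.10), the nucleotide sugar transporters (1 and 2, -0.09), the phosphate transporters (0 and 2, -0.09), the nucleoside transporters (1 and 1, -0.77) and the vesicular transporters (1 and 1, 0.01).

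**Figure D1:**
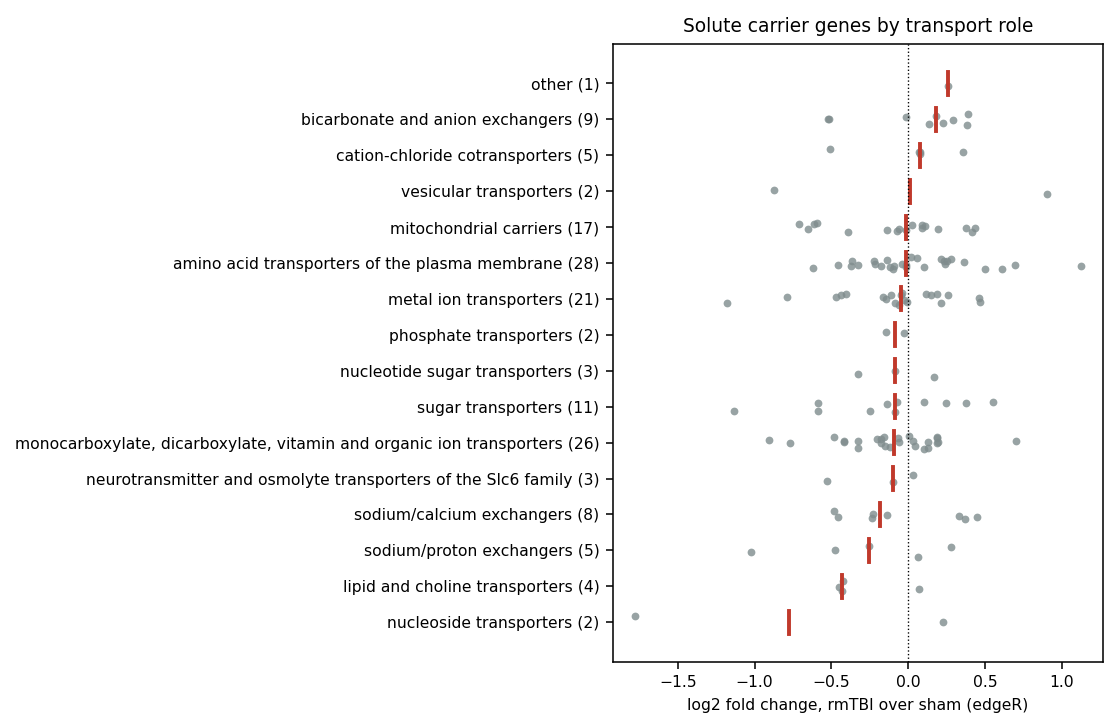
Each point is a gene at its peak with the most counts, with the log2 fold change of rmTBI over sham on the horizontal axis, and the red bar is the group's median. Rows are transport roles with the number of genes measured, ordered by the median, and in the groups of 10 genes or more the points lie on both sides of 0.

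The sodium/calcium exchangers, which carry calcium out of cells in exchange for sodium, included several genes whose peaks all lay on one side. Slc8a1, the exchanger best known from the heart and also a main one of neurons, held 1744 and 879 CPM (counts scaled to the size of each library with TMM factors) in the rmTBI libraries and 1362 and 669.7 CPM in the sham libraries at a coding peak (chr17:81432668-81647931). Library number set the level there, since library 0 of each group was about 1 log2 unit above library 1. Within each number the rmTBI library was the higher (log2 0.37, SE 0.40). All 6 peaks of Slc8a1 lay higher, with log2 values from 0.16 to 0.37. The span covers 215264 bases and includes introns, so its level is not comparable with that of other genes.

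Slc8a2, which is largely confined to neurons, held 136.8 and 102.5 CPM in rmTBI and 109.3 and 81.0 CPM in sham at its coding peak with the most counts (chr7:16150386-16157175; log2 0.33, SE 0.27). The groups overlapped at that peak, since rmTBI library 1 lay below sham library 0. At a 3' UTR peak (chr7:16160524-16160914) it held 10.7 and 10.9 CPM in rmTBI and 6.84 and 6.88 CPM in sham (log2 0.65, SE 0.25), and there the groups did not overlap. All 8 peaks lay higher in rmTBI, from 0.32 to 0.65, in 4 overlap clusters.

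Slc8a3, named here after its values were seen, pointed the other way from its family members. At its longest peak (chr12:81202470-81294459) it held 295.0 and 183.3 CPM in rmTBI and 336.0 and 226.8 CPM in sham (log2 -0.24, SE 0.31), and the groups overlapped. At a short coding peak (chr12:81315029-81315389) it held 11.1 and 13.2 CPM in rmTBI and 16.5 and 17.1 CPM in sham (log2 -0.47, SE 0.25), without overlap. All 8 of its peaks lay lower, from -0.82 to -0.23. No test of the difference between these genes was run.

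The potassium-dependent exchangers of the Slc24 family, which also carry potassium out of the cell, gave no common direction. Within both library numbers Slc24a2 and Slc24a3 lay lower and Slc24a4 higher. Slc24a1 (log2 -0.23, SE 1.01) and Slc24a5 (-0.14, SE 0.48, at a peak that overlaps Myef2) had opposite signs within the numbers. Slc24a3 held 105.3 and 113.5 CPM in rmTBI and 152.1 and 153.4 CPM in sham at a coding peak (chr2:145604567-145613567; log2 -0.48, SE 0.22). Both rmTBI libraries lay well below both sham libraries there. All 9 Slc24a3 peaks lay lower, from -0.93 to -0.18. The value nearest to 0 was at the 5' UTR peak over the start shown above, with 3.94 and 4.50 CPM in rmTBI and 4.14 and 5.41 CPM in sham, where the groups overlapped. At 2 of its 3' UTR peaks it had an unadjusted p under 0.05 by edgeR, among them chr2:145641535-145641746 with 2.88 and 2.19 CPM in rmTBI and 3.92 and 5.52 CPM in sham (log2 -0.93, SE 0.34).

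Slc24a2, an exchanger of neurons and retinal cones, held 70.4 and 100.3 CPM in rmTBI and 92.3 and 142.4 CPM in sham (log2 -0.46, SE 0.30). Its groups overlapped, because library 1 was the higher one in both, and all 5 of its peaks lay lower. Slc24a4, an exchanger of brain, enamel and olfactory neurons, held 15.3 and 23.7 CPM in rmTBI and 8.84 and 19.7 CPM in sham (log2 0.45, SE 0.41). The direction rested on sham library 0, without which the log2 value was -0.02.

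**Figure D2:**
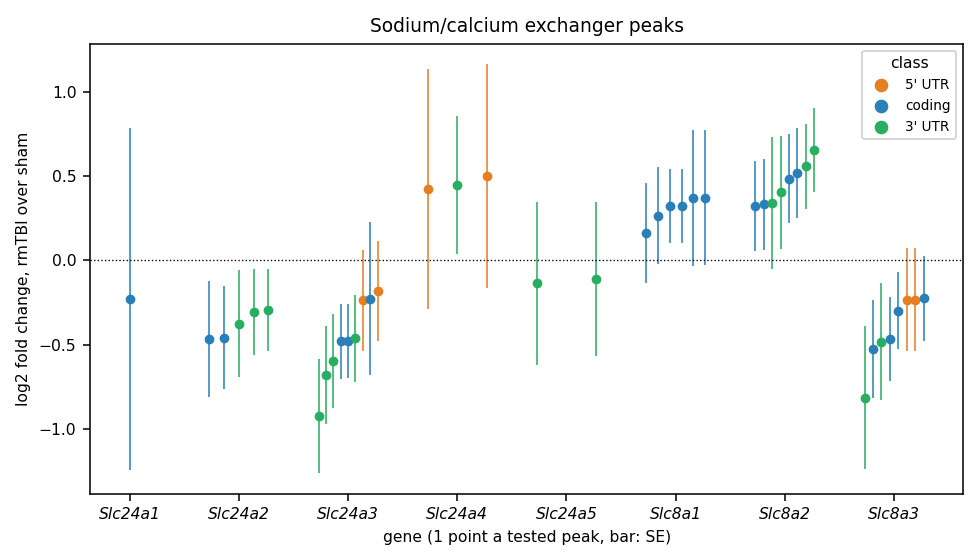
Points are the tested peaks of the 8 sodium/calcium exchanger genes, with the log2 fold change of rmTBI over sham on the vertical axis, bars of 1 SE and colours for the authors' class. All peaks of Slc8a1, Slc8a2 and Slc24a4 lie above 0 and all peaks of Slc8a3, Slc24a2 and Slc24a3 below it, and peaks of a gene that overlap share reads.

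Among metal ion transporters that met the minimum of 10 counts per library, the lowest and the highest members were both zinc importers. Slc39a12, a zinc importer of the brain, held 9.93 and 8.63 CPM in rmTBI and 18.5 and 13.6 CPM in sham at a coding peak (chr2:14389449-14396153; log2 -0.79, SE 0.28). This was the smallest unadjusted p of any member at its peak with the most counts, and the groups did not overlap. The 5' UTR peak over the start shown above held 1.14 and 1.22 CPM in rmTBI and 0.784 and 2.20 CPM in sham, which overlap.

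Slc39a10, a zinc importer found in many tissues, held 236.1 and 247.8 CPM in rmTBI and 172.5 and 178.6 CPM in sham at a 5' UTR peak that runs into the gene (chr1:46832731-46853613; log2 0.46, SE 0.21). Both libraries of a group lay close together, and all 4 peaks of the gene lay higher, from 0.31 to 0.48. Other zinc importers lay on both sides. Slc39a8 stood at 0.47 with few counts (6 and 20 in rmTBI, 4 and 15 in sham), Slc39a3 at -0.44 and Slc39a14 at -0.41. All 5 peaks of Slc39a6 lay higher, with at most 0.23, and all 6 of Slc39a7, a carrier that releases zinc from the endoplasmic reticulum, lay lower, with -0.17 at the lowest.

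Among mitochondrial carriers, the largest differences lay at low or moderate levels. Slc25a37, which brings iron into mitochondria, held 7.43 and 4.71 CPM in rmTBI and 9.84 and 9.03 CPM in sham (log2 -0.65, SE 0.31). Slc25a33, a carrier of pyrimidine nucleotides, held 4.02 and 5.22 CPM in rmTBI and 7.13 and 6.95 CPM in sham (log2 -0.60, SE 0.28). Slc25a11, the oxoglutarate/malate carrier, held 5.003 and 4.21 CPM in rmTBI and 8.48 and 5.63 CPM in sham (log2 -0.61). In these carriers both rmTBI libraries lay below both sham libraries. On the other side, Slc25a38, a glycine carrier needed for haem synthesis, held 5.16 and 5.90 CPM in rmTBI and 4.06 and 4.24 CPM in sham (log2 0.42). Slc25a27, an uncoupling protein of neurons, held 3.11 and 4.35 CPM in rmTBI and 2.85 and 2.74 CPM in sham (log2 0.43). Groups did not overlap in either.

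Amino acid and peptide transporters included the higher member with the smallest unadjusted p at its peak with the most counts. Slc15a3, a lysosomal transporter of histidine and small peptides known from macrophages, held 19.2 and 21.1 CPM in rmTBI and 13.8 and 12.7 CPM in sham at a 3' UTR peak (chr19:10857881-10858480; log2 0.61, SE 0.25). The groups did not overlap. The peak was called on the minus strand, while the peaks of Slc15a3 lay on both strands. It also overlaps Tmem132a, so the reads may belong to either gene. Slc7a4 held 2.27 and 2.37 CPM in rmTBI and 0.570 and 1.46 CPM in sham (log2 1.12, SE 0.53). Slc7a11, the cystine/glutamate exchanger, held 7.88 and 6.19 CPM in rmTBI and 6.20 and 4.76 CPM in sham (log2 0.36), with overlap. Slc36a1, a proton-coupled amino acid transporter of lysosomes, had 6 peaks that all lay higher, from 0.15 to 0.77. The lowest member with at least 10 counts in every library was Slc38a7, a lysosomal glutamine exporter, with 1.14 and 1.08 CPM in rmTBI and 1.85 and 1.57 CPM in sham (log2 -0.62).

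Of the carriers of Slc6 substrates, Slc6a9, which takes up glycine, held 3.79 and 3.13 CPM in rmTBI and 5.35 and 4.61 CPM in sham at a 3' UTR peak (log2 -0.53, SE 0.30). The groups did not overlap, and all 4 of its peaks lay lower. Slc6a6, the taurine transporter, stood at -0.10 and Slc6a8, the creatine transporter, at 0.03.

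The transporters of monocarboxylates and organic ions included carriers known from the choroid plexus and the vessel wall. Slc13a4, a sodium-coupled sulfate transporter, held 5.69 and 2.84 CPM in rmTBI and 9.06 and 6.62 CPM in sham at a coding peak (chr6:35280385-35287384; log2 -0.90, SE 0.38). Its groups did not overlap, and all 4 of its peaks lay lower. At the 5' UTR peak over the start shown above it held 5.76 and 3.89 CPM in rmTBI and 7.27 and 6.44 CPM in sham (log2 -0.52). Slc16a1, a carrier of lactate and other monocarboxylates, held 30.4 and 23.9 CPM in rmTBI and 33.6 and 26.5 CPM in sham at its coding peak (log2 -0.15). Its 5' UTR peak, called in rmTBI alone, held 4.09 and 5.72 CPM in rmTBI and 7.99 and 7.79 CPM in sham (log2 -0.67, SE 0.29). The groups overlapped at the coding peak and did not at the 5' UTR peak. Slc22a15, an organic ion transporter, held 2.43 and 2.48 CPM in rmTBI and 4.99 and 3.48 CPM in sham (log2 -0.77, SE 0.34).

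Carriers with few counts showed larger values with larger errors. Slc29a4, a monoamine transporter of the plasma membrane, had 2 and 23 counts in rmTBI and 37 and 33 in sham at a coding peak (chr5:142717770-142718540; log2 -1.78, SE 0.77). The groups did not overlap, and the log2 value was -1.18 without rmTBI library 0 and -3.57 without rmTBI library 1. Slc17a8, a vesicular glutamate transporter of subcortical and some cortical neurons, named here after its values were seen, had 1 and 7 counts in rmTBI and 12 and 30 in sham at a 3' UTR peak (log2 -2.38, SE 0.83). Slc17a5, which exports sialic acid from lysosomes, held 1.97 and 1.01 CPM in rmTBI and 0.499 and 0.988 CPM in sham (log2 0.90).

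**Figure D3:**
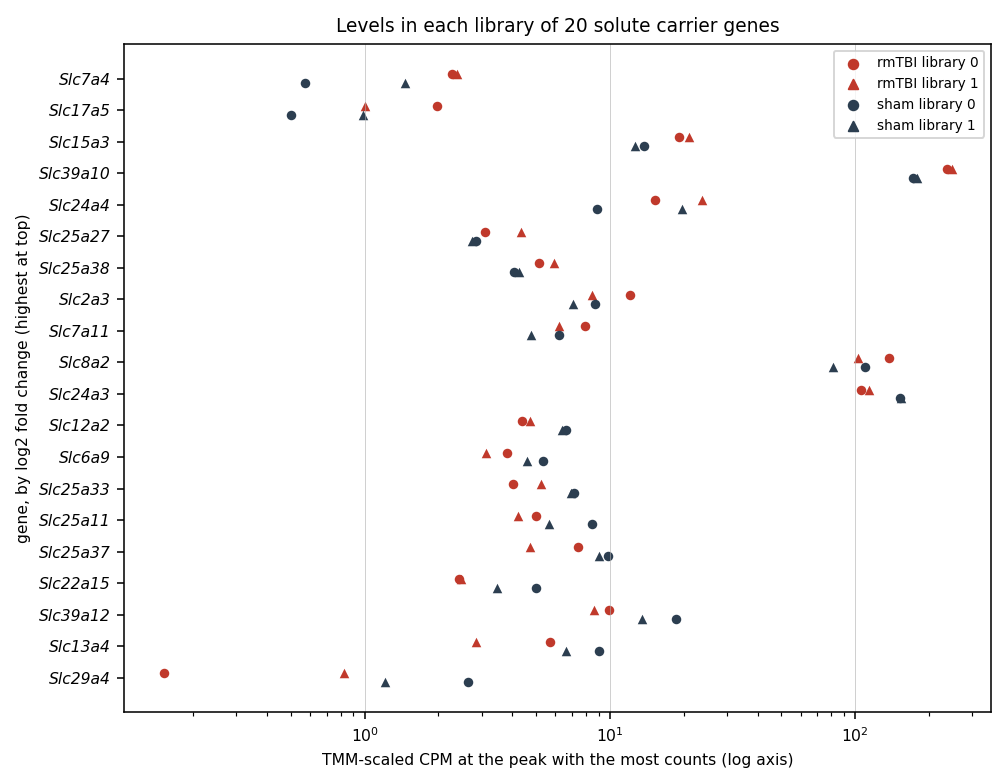
Levels in TMM-scaled CPM (log axis) of the 20 members with the smallest unadjusted p on each side whose direction was the same within both library numbers, 10 higher and 10 lower in rmTBI, each at its peak with the most counts. Red marks are rmTBI and dark marks sham, circles library 0 and triangles library 1. The groups do not overlap in the 10 lower genes and in 6 of the 10 higher ones, which the choice by small p favours. Over all genes, 12.3% lay below and 10.7% above without overlap.

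Members known from particular cell types were set beside marker genes of those cells. The neuronal carriers lay higher in 8 of 9 measured genes, with a median log2 fold change of 0.23 (0.24 between libraries 0 and 0.25 between libraries 1). Besides Slc8a1 and Slc8a2, Slc4a10, a sodium-driven bicarbonate exchanger, held 326.0 and 213.7 CPM in rmTBI and 265.8 and 195.9 CPM in sham (log2 0.23, SE 0.28), with overlap. Slc2a3, the glucose transporter of neurons, held 12.1 and 8.45 CPM in rmTBI and 8.70 and 7.10 CPM in sham (log2 0.37), also with overlap. Slc6a7, the proline transporter, stood at 0.23 and Slc4a3, an anion exchanger, at 0.14. Slc24a2 was the lower one. The list was written with earlier results of these data known. Members described here as neuronal but not on it lay on both sides, each at its peak with the most counts. Slc8a3 (log2 -0.235), Slc5a7 (-0.45) and Slc17a8 (-0.88) lay lower, and Slc25a27 (0.43) and Slc24a4 (0.45) lay higher. Without rmTBI library 0 the median of the list was -0.03. Of the 11 markers of cortical neurons other than these carriers, among them Cux2 and Tbr1, 9 lay higher (median 0.46), and their summed level was 631.6 and 646.2 CPM in rmTBI and 489.4 and 505.9 CPM in sham. The part of neuron number in the carriers' values was not tested.

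The astrocyte carriers lay lower in 7 of 8 measured genes, with a median of -0.42 (-0.40 and -0.42 within the library numbers). Slc4a4, the sodium bicarbonate cotransporter, held 73.7 and 35.9 CPM in rmTBI and 108.0 and 48.7 CPM in sham at a 5' UTR peak (log2 -0.52, SE 0.46). Library number separated those levels more than group did, and within each number rmTBI was the lower. Slc39a12 and Slc6a9 were described above. Slc7a10, an exchanger of small neutral amino acids whose peak overlaps Lrp3, stood at -0.46, and Slc25a18, a mitochondrial glutamate carrier, at -0.39. Slc7a11 was the higher one. The 8 measured astrocyte markers beyond the members, among them Aqp4 and Gja1, lay lower in 6 genes with a median of -0.16, and their summed level was 998.5 and 959.3 CPM in rmTBI and 979.5 and 925.7 CPM in sham. Most of that sum came from Slc1a2 and Slc1a3, glutamate carriers left out of the members, which were the markers that lay higher (log2 0.04 and 0.27). Without these the other 6 markers all lay lower (median -0.20), with 299.3 and 276.2 CPM in rmTBI and 328.1 and 300.5 CPM in sham. The left-out carriers Slc17a7 and Slc17a6 were kept in the lists of cortical neuron and thalamic markers. The part of astrocyte number in the carriers' values was not tested.

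The carriers of the choroid plexus lay lower in all 3 measured genes (median -0.90), of the 7 listed. Apart from Slc13a4 and Slc29a4 this was Slc2a12, a glucose transporter, at -0.59 (SE 0.77). It had 8 and 22 counts in rmTBI and 25 and 13 in sham, and between libraries 1 it lay higher in rmTBI (log2 0.71). Markers of choroid plexus and ependyma lay lower in 4 of 5 measured genes, with a summed level of 12.6 and 12.9 CPM in rmTBI and 41.4 and 43.3 CPM in sham. Ttr, Folr1, Otx2, Kcnj13 and Aqp1 had no tested peak. The carriers of oligodendrocytes were Slc12a2, a sodium-potassium-chloride cotransporter, with 4.40 and 4.71 CPM in rmTBI and 6.63 and 6.40 CPM in sham (log2 -0.51), and Slc44a1, a choline transporter, at -0.42. All 9 measured oligodendrocyte markers, Mbp and Mobp among them, lay lower, with a summed level of 411.3 and 349.0 CPM in rmTBI and 598.1 and 535.4 CPM in sham. The part of either cell type in the carriers' values was not tested.

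The carriers of the brain endothelium gave no common direction, with 4 higher and 6 lower of 10 genes (median -0.14). Slc2a1, the glucose transporter of the blood-brain barrier, held 26.99 and 37.6 CPM in rmTBI and 30.9 and 45.9 CPM in sham (log2 -0.25), and Slc7a5, a transporter of large neutral amino acids, stood at -0.37. Slc39a10 was the highest. The median turned to 0.11 without sham library 0. The 4 measured endothelial markers had a median of 0.05, with a summed level of 46.8 and 43.5 CPM in rmTBI and 47.5 and 41.9 CPM in sham. Of the microglial carriers, Slc15a3 was higher, at the peak that also overlaps Tmem132a. Slc11a1, a metal transporter of phagosomes, and Slc37a2, a sugar-phosphate exchanger, lay lower at -0.05 and -0.59. The 7 measured microglial markers had a median of 0.41, with 6 higher, and summed to 54.8 and 55.5 CPM in rmTBI and 40.4 and 49.2 CPM in sham.

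Markers of brain regions outside the cortex differed between the groups as well. The 11 measured thalamic markers, Tcf7l2 and the left-out carrier Slc17a6 among them, all lay lower (median log2 -2.77, 6 called by edgeR). Their summed level was 145.9 and 143.3 CPM in rmTBI and 685.5 and 721.9 CPM in sham. The 7 measured striatal markers all lay lower (median -1.05), with 643.5 and 614.5 CPM in rmTBI and 1193 and 1168 CPM in sham. Of the members, Slc5a7, the choline transporter of cholinergic neurons, which lie mostly below the cortex, held 6.67 and 4.03 CPM in rmTBI and 7.13 and 7.28 CPM in sham (log2 -0.45), and all 3 of its peaks lay lower. The other 7 listed carriers of cholinergic, monoamine and glycine neurons had no tested peak. Whether the amount of tissue from outside the cortex bears on the values of Slc24a3, Slc17a8, Slc5a7 or other members was not tested.

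**Figure D4:**
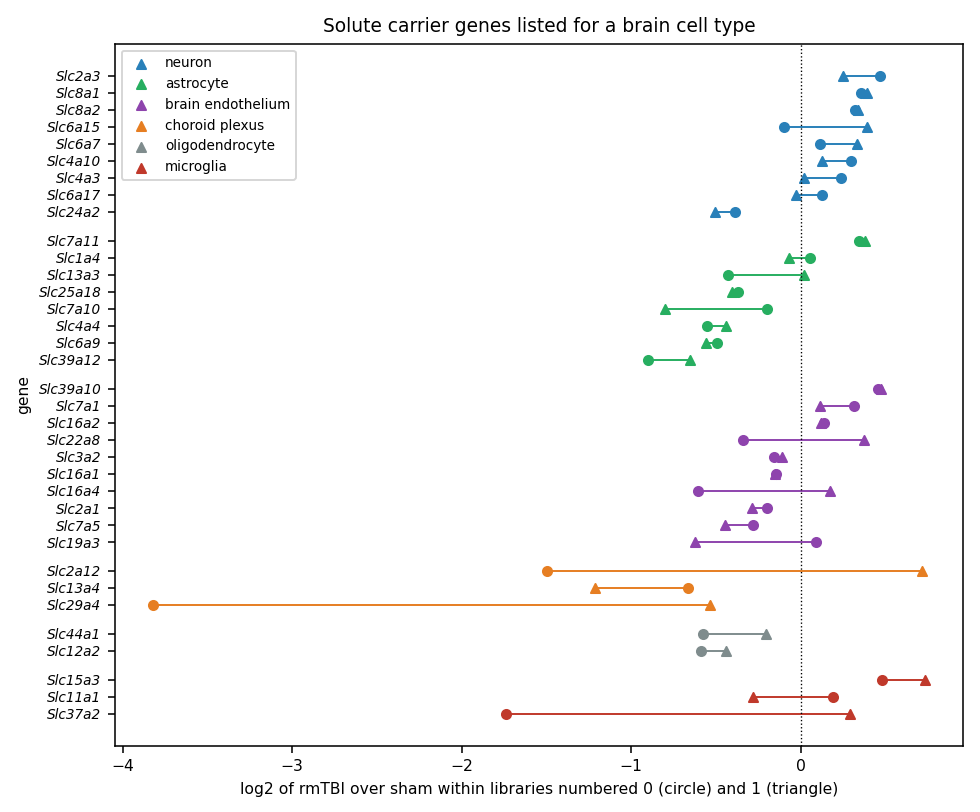
The log2 ratio of rmTBI over sham within the libraries numbered 0 (circles) and 1 (triangles) for members listed for 6 brain cell types, each at its peak with the most counts. Most neuronal carriers lie right of 0 and most astrocyte carriers left of it, and in low members such as Slc29a4, Slc2a12 and Slc37a2 the numbers are far apart.

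Some genes had all their peaks on the same side, and peaks that overlap share reads. Of the 35 genes with at least 3 overlap clusters, all tested peaks lay higher in 6 and lower in 13, and 16 were mixed. The same split over all genes was not computed, so these counts cannot be set against a usual rate. The uniformly lower genes included Slc24a3, Slc24a2, Slc8a3, Slc4a4, Slc6a9, Slc13a4 and Slc5a7, and the uniformly higher ones Slc8a1, Slc8a2, Slc36a1, Slc39a6, Slc7a1 and Slc26a1. Slc25a44 was mixed, with 5 peaks on each side and values from -0.11 to 0.21. Different clusters of a transcript still come from the same molecules, so this is no measure of repeatability.

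The peak sets of the conditions shared members to about the same degree. In rmTBI 205 member peaks were called and in sham 207, and 134 (65.4%) of the rmTBI set and 136 (65.7%) of the sham set overlapped a peak of the other set by at least 1 base, against 71.1% and 64.1% over all peaks (67.4% for both sets together). Peaks in both sets were found in 102 members, in the rmTBI set alone in 23 and in the sham set alone in 24. Peaks without a partner in the rmTBI set had a median log2 fold change of -0.09, with 30 of 68 tested peaks higher in rmTBI, against -0.03 and 2063 of 4418 over all genes. Those of the sham set had a median of -0.16, with 18 of 66 higher in rmTBI, against 0.01 and 3192 of 6155 over all genes. Each peak was counted in all 4 libraries, whichever condition called it.

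Levels also differed between library numbers, and more so at peaks with long spans. Spans over 5000 bases were found at 33 member peaks (8.01%, against 10.3% of all peaks). There the median log2 ratio of library 1 to library 0 was -0.61 in rmTBI and -0.51 in sham, against 0.13 and -0.00 at the shorter peaks that met the minimum of 10 counts. Over all genes the pattern was similar, with -0.43 in rmTBI and -0.42 in sham at long spans and 0.07 and 0.03 at shorter ones. Slc8a1, Slc4a4, Slc39a11 and a 77005-base peak of Slc24a3 lay near -1, with -0.99 in rmTBI and -1.02 in sham for Slc8a1 and -1.18 and -1.10 for Slc39a11. Short peaks lay at the other end. Slc35a1, which carries CMP-sialic acid into the Golgi, held 2.05 and 5.32 CPM in rmTBI libraries 0 and 1 and 2.28 and 5.596 CPM in sham (log2 ratios 1.36 and 1.28). Slc6a15, an amino acid transporter of neurons, held 5.99 and 15.6 CPM in rmTBI and 6.42 and 11.9 CPM in sham (1.37 and 0.88). What the numbers stand for is not known here, and if they mark kinds of library, means over a group mix them.

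**Figure D5:**
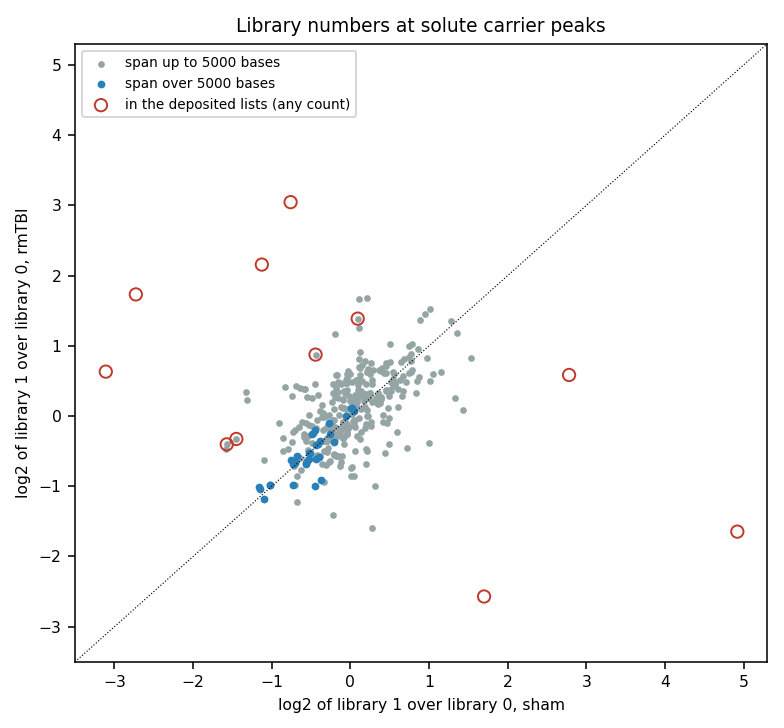
Each point is a member peak, with the log2 ratio of library 1 over library 0 in rmTBI on the vertical axis and in sham on the horizontal axis, and the dotted line marks equal ratios. Peaks with 10 counts or more in all 4 libraries cluster along the line with long spans at the lower left, and most of the 11 circled peaks from the deposited lists lie away from it.

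The authors' deposited log2 values per peak describe this quantity and not the difference of group means, as they followed the ratio of libraries 1 and 0 in rmTBI over the same ratio in sham. Of 412 member peaks, 0 in the authors' deposited table had an adjusted p under 0.05, the lowest being 0.998, and 11 had an unadjusted p under 0.05 from a test that is not named. Those peaks are the members of the authors' deposited lists, with 8 in the list of higher peaks (1.94% of the members, against 0.815% of all peaks) and 3 in the list of lower peaks (0.728%, against 0.43%). Most rest on few counts. Slc29a4 stood at 3.62 in the authors' deposited table, from 2 and 23 counts in rmTBI libraries 0 and 1 and 37 and 33 in the sham libraries. Slc16a6, a carrier of the monocarboxylate family, stood at 4.15 in the authors' deposited table, from 2 and 43 counts in rmTBI and 26 and 30 in sham. In both, rmTBI library 0 was the low one.

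Slc12a7, a potassium-chloride cotransporter, stood at 4.03 in the authors' deposited table, from 7 and 24 counts in rmTBI and 15 and 3 in sham. Slc26a1, a sulfate and anion exchanger whose peak overlaps Idua, stood at 4.93 there, in the authors' deposited table, from 3 and 24 counts in rmTBI and 8 and 2 in sham. Here sham library 1 was low as well. Slc25a11 had the value 1.39 in the authors' deposited table, from 18 and 71 counts in rmTBI and 64 and 92 in sham. The other entries of the higher list were Slc5a2, a sodium/glucose cotransporter whose peak overlaps Rusf1, and both peaks of Slc24a5, which overlap Myef2, with 1.35, 1.22 and 1.17 in the authors' deposited table.

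On the lower side, Slc16a14, whose start is shown above, stood at -5.51 in the authors' deposited table, from 24 and 16 counts in rmTBI and 0 and 29 in sham at chr1:84934953-84935134. Sham library 0 had no count at that peak, and an absence there allows up to 3 counts by counting error alone. Slc24a1, the exchanger of rod photoreceptors, stood at -4.46 in the authors' deposited table, from 15 and 5 counts in rmTBI and 4 and 28 in sham. Slc16a3, a lactate exporter whose peak overlaps Csnk1d, stood at -2.41 in the authors' deposited table, from 12 and 39 counts in rmTBI and 2 and 33 in sham. None of these peaks had a difference of group means at an unadjusted p under 0.05 by edgeR except that of Slc25a11 (log2 -0.96), which lay lower in rmTBI while its value in the authors' deposited table is positive.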

How the data were processed

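Peaks of 4 mouse cortex libraries labelled m6A (2 rmTBI, 2 sham, grouped by the labels) were analysed. The authors deposited whole-number read counts per peak, not normalized. Per the file headers, peaks were called separately in each condition and stacked. Per the submitters' processing notes, STAR, DESeq2 and GRCm39 were used, without versions or roles; the peak caller and the counter are not named there. Coordinates matched RefSeq's GRCm38.p6 and are given as such: 409 of 412 member peaks lay in the span of their gene. All 149 symbols matched RefSeq. The deposited log2 fold change per peak, with its p-value and adjusted p-value, was also used; over the 412 member peaks, which share reads, it followed the ratio of library ratios (Pearson r = 0.99, a description) and 93.5% lay within 0.1 of it after an offset of 0.04.

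Counts were tested with edgeR 4.0.16 (R 4.3.3; TMM, filterByExpr, quasi-likelihood F-test, group only, 2 residual degrees of freedom) over 33415 peaks with Benjamini-Hochberg adjustment. The SE is the size of the log2 fold change over the root of its F. Levels are CPM with TMM factors; library ratios had 0.5 counts added. The fit was tested on simulated data. Totals over peaks were 13753600 and 26888072 counts in rmTBI libraries 0 and 1 and 14437317 and 26356562 in sham; counting floors and errors cover counting only. DESeq2 1.42.0, other scalings, filters, peak sets, left-out libraries and a block of library number were alternatives. Same-numbered libraries deviated together (r = 0.43 over 33415 peaks), but with 2 pairs and no label on their meaning the numbers were not taken as pairs.

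Members and lists were chosen with earlier results of these data known. Genes named were, by rule, the 10 with the smallest p on each side with the same direction within both numbers, the extremes of each role group, members of the deposited lists and of the cell type lists, the extremes of the library ratio and the 5 genes with the most clusters; others are said to be named after their values were seen, or stand in a count of peaks. Of the marker genes listed, 2 are not reported here and entered no count or sum.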

Additional observations from a re-analysis of the deposited data

Results flagged for a closer look

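At 7 of the 11 member peaks in the authors' deposited lists the ratio of library 1 to library 0 had opposite signs in rmTBI and in sham, and the difference was not tested. The deposited values follow this difference, so the choice of peaks for the lists favours opposite signs. Other member peaks outside the lists also had opposite signs, and their share is not given here. The log2 ratio in rmTBI minus that in sham was 3.74 at Slc12a7, 3.81 at Slc16a6, 4.46 at Slc26a1, 3.28 at Slc29a4 and 1.32 at Slc25a11. It was -6.57 at Slc16a14 and -4.27 at Slc24a1. Of these peaks 6, all but Slc25a11, held fewer than 10 counts in at least 1 library.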

How the results depend on the processing

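No member peak was called by edgeR or DESeq2 under the other scalings, filters and peak sets or without any 1 library; at an unadjusted p under 0.05 the count ranged from 5 to 17 without a library, and was 4 with DESeq2, 7 with at least 10 counts in every library, 5 among the sham set alone and 9 among the rmTBI set alone. With library number as a replicate block, edgeR called 50 of 404 member peaks (12.4%, against 10.6% of all tested peaks), 19 higher (5.42% of all tested peaks were) and 31 lower (5.22%) in 18 genes, among them 9 of the 20 genes of the level plot; the numbers are not known to pair the libraries. The members' median log2 fold change kept its sign, from -0.10 to -0.02 without a library, and was -0.05 without genes whose peak overlaps another coding gene, a setting chosen after seeing the data. Of the alternatives for the 20 peaks of the level plot, 1 turned the direction, Slc24a4 at -0.023 without sham library 0 (its range without a library was -0.023 to 1.15). Leaving out a library moved the value by over 1.5 times for 12 of the 20 genes, with ranges of -0.45 to -1.47 for Slc13a4, 0.37 to 1.53 for Slc17a5, 0.66 to 2.02 for Slc7a4, -1.17 to -3.57 for Slc29a4, 0.097 to 0.55 for Slc8a2, 0.091 to 0.61 for Slc2a3, 0.17 to 0.55 for Slc7a11, 0.15 to 0.63 for Slc25a27, -0.34 to -1.01 for Slc25a37, -0.31 to -0.89 for Slc25a11 and -0.51 to -1.02 for Slc22a15. The median library ratio was 0.10 with library-size scaling. Taking the median over a gene's peaks gave -0.25 for the Slc6 carriers, -0.055 for the nucleotide sugar transporters (-0.10 with library-size scaling), -0.40 for the astrocyte list and 0.14 for the neuron list. Leaving out a library in turn unbalances the library numbers between groups, and gave medians from -0.37 to -0.014 for the Slc6 carriers, -0.021 to 0.17 for the bicarbonate exchangers, -0.30 to 0.078 for the sodium/calcium exchangers, -0.74 to -0.015 for the sodium/proton exchangers, -0.38 to 0.065 for the sugar, -0.10 to 0.024 for the amino acid and -0.23 to -0.029 for the monocarboxylate and organic ion transporters, -0.27 to -0.044 for the metal ion transporters, -0.25 to 0.079 for the mitochondrial carriers, -0.49 to -0.23 for the lipid and choline transporters, -0.24 to 0.25 for the nucleotide sugar transporters, -0.082 to 0.11 for the endothelial, -0.57 to -0.24 for the astrocyte, -0.18 to 0.24 for the microglial and -0.032 to 0.28 for the neuronal list. The cause of each shift beyond that was not tested. Peaks shared at 50% reciprocal overlap numbered 218, against 270 at 1 base.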
